A study of Homo sapiens with 6 samples.

Results

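The enzymes that build purine and pyrimidine nucleotides, thymidylate and the deoxynucleoside triphosphates (dNTPs) were followed in H929, also called NCI-H929, a widely used human cell line from multiple myeloma, a malignancy of the plasma cells that secrete antibodies. The 35 genes were listed by symbol from the textbook pathways by a rule that uses no measured value, though earlier results of these data were known when the list was made. Each matched 1 of the 62703 Ensembl gene IDs in the deposited tables. Cells of genotype WT received 1 µM Mi-2, described in the series as an inhibitor of the protease MALT1, or its solvent DMSO, and were taken after 24 h. Each treatment had 3 RNA-seq libraries, numbered 1 to 3, and no group differed in genotype. The study used 1 cell line. The titles number the libraries of a group 1 to 3 but mark every one of them as biological replicate 1, and nothing in the labels gives separate cultures. The p-values therefore measure the spread between these libraries, which may be technical.

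Purines are assembled stepwise on activated ribose (PRPP) up to inosine monophosphate (IMP), which branches to AMP and GMP. Pyrimidines are built as a ring first and joined to PRPP afterwards, giving UMP and then CTP. Ribonucleotide reductase turns ribonucleotides into deoxyribonucleotides, thymidylate synthase makes the DNA-specific base with a one-carbon unit carried by folate, and salvage enzymes recycle free bases and nucleosides. Proliferating cells, malignant plasma cells among them, draw on these routes for DNA and RNA, and several of the enzymes are classic drug targets.

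Total estimated counts were 21938900 to 23756700 in the Mi-2 libraries and 19980700 to 22651600 in the DMSO libraries. CPM are estimated counts scaled by the library's total over genes that passed the filter on low counts and by its TMM scaling factor. Of 10 plasma cell and myeloma markers, 9 passed that filter, 2 of them higher (IRF4 and MZB1) and 2 lower (SDC1 and CD38) with Mi-2. The summed level of the 10 was 11220 to 13130 CPM in Mi-2 libraries and 10450 to 13380 CPM in DMSO libraries. Of 8 markers of T and NK cells 1 passed (CD3E), with CD3D and CD8A at 0 in all 6 libraries and a sum of 40.1 to 45.9 CPM with Mi-2 against 27.1 to 33.2 CPM with DMSO. None of 8 myeloid markers passed, with a sum of 0.544 to 1.16 CPM in Mi-2 libraries and 0.348 to 1.20 CPM in DMSO libraries. Of 8 markers of fibroblasts, endothelium and epithelium 2 passed (PECAM1 and KRT18, both higher with Mi-2), COL1A2 was at 0, and the sum was 88.0 to 104.8 CPM against 63.5 to 77.2 CPM. Of 7 erythroid and platelet markers 2 passed and neither was called, with PPBP and PF4 at 0. The share of counts on mitochondrially encoded mRNAs was 4.86% to 5.05% in Mi-2 libraries and 4.23% to 4.66% in DMSO libraries, and its part in the results was not tested.

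After 24 h with Mi-2, 19 of the 35 nucleotide synthesis genes were lower than with DMSO, none was higher and 16 were not called either way. A gene was called at an adjusted p under 0.05 in the quasi-likelihood F test of edgeR, with Benjamini-Hochberg adjustment over the 16082 genes that passed the filter. All 35 passed it. Among all tested genes, 6.03% were called lower and 5.02% higher, with a median log2 fold change (Mi-2 over DMSO) of 0, beside a median of -0.40 over the 35 and a range of -0.96 (DUT) to 0.21 (SAMHD1). The fold change was negative for 32 of the 35. For 26 of them every Mi-2 library lay below every DMSO library, and for none was every Mi-2 library above, beside 16.6% and 15.7% of all tested genes. At an unadjusted p under 0.05, 27 of the 35 were lower and none higher with edgeR, beside 2266 lower and 2081 higher of the 16082 tested genes. DESeq2 gave 27 and 0, beside 2137 and 1895 of all tested genes. After adjustment DESeq2 had 22 lower and 0 higher of the 35, beside 1282 and 1047 of all tested genes. In bulk RNA, fewer cells of a kind and less of an RNA per cell cannot be told apart.

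**Figure D1:**
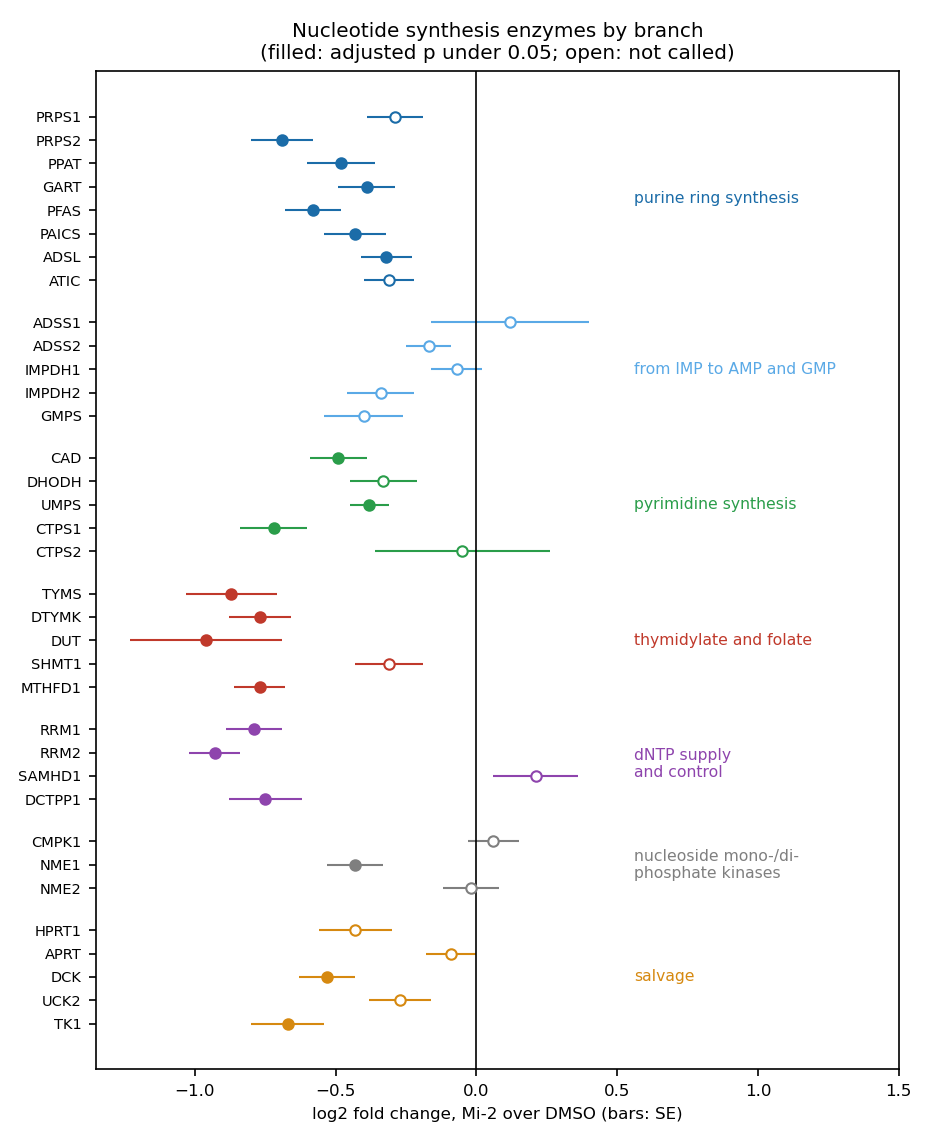
Log2 fold change (Mi-2 over DMSO, x axis) of the 35 nucleotide synthesis genes in 7 branches, from edgeR; points are estimates, bars their SE, and filled points have an adjusted p under 0.05. The filled points lie left of 0, and the largest falls are those of DUT (-0.96), RRM2 (-0.93) and TYMS (-0.87).

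The branches differed in their median change, though not by any test of the difference. Of all tested genes, 6.03% were called lower. The median log2 fold change was -0.77 in the thymidylate and folate branch (4 of 5 called lower) and -0.77 in dNTP supply and control (3 of 4). It was -0.41 in purine ring synthesis (6 of 8) and -0.38 in pyrimidine synthesis (3 of 5). Salvage had a median of -0.43 with 2 of 5 called. The branch from IMP to AMP and GMP had a median of -0.17 with 0 of 5 called, and the mono- and diphosphate kinases had a median of -0.02 with 1 of 3 called. By length-corrected level, the deposited TPM summed over a branch, the thymidylate and folate genes held 220.1 ± 24.6 TPM in Mi-2 libraries and 387.6 ± 37.2 TPM in DMSO libraries (SD, n = 3 each), a mean that was 43.2% lower. The dNTP genes summed to 340.3 ± 22.0 TPM with Mi-2 and 594.5 ± 17.8 TPM with DMSO, 42.8% lower. Pyrimidine synthesis summed to 130.5 ± 19.1 TPM with Mi-2 and 201.4 ± 24.3 TPM with DMSO, 35.2% lower. Purine ring synthesis summed to 543.3 ± 38.6 TPM against 722.9 ± 57.6 TPM, 24.8% lower. The other branches fell less. Salvage summed to 441.9 ± 28.4 TPM against 550.2 ± 16.7 TPM, 19.7% lower. The branch from IMP to AMP and GMP summed to 471.2 ± 48.8 TPM against 583.9 ± 42.9 TPM, 19.3% lower. The mono- and diphosphate kinases summed to 1105 ± 56.2 TPM against 1206 ± 62.8 TPM, 8.4% lower. All 35 genes summed to 3253 ± 177 TPM against 4247 ± 141 TPM, 23.4% lower.

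**Figure D2:**
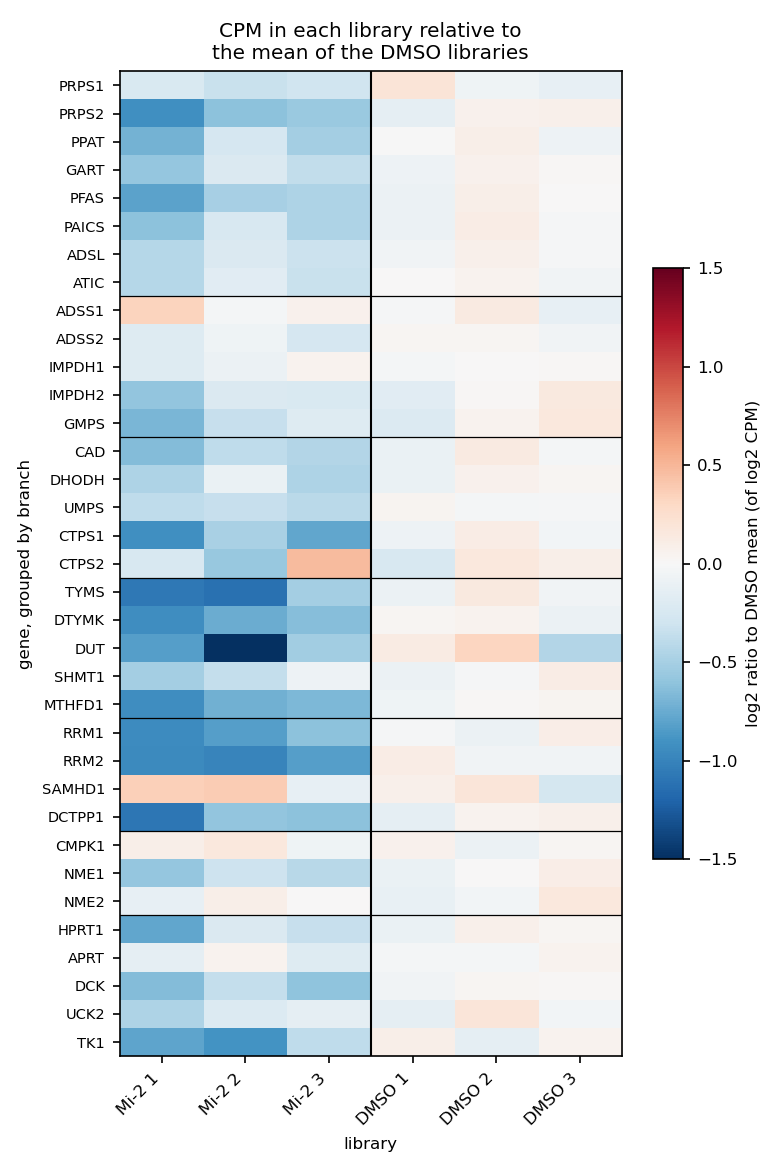
Log2 CPM in each library minus the mean log2 CPM of the DMSO libraries for the 35 genes, with nothing added to CPM. Rows are genes grouped by branch, and the columns of the Mi-2 libraries are left of those of the DMSO libraries. The colour scale ends at -1.5 and 1.5. Most rows are blue in the Mi-2 columns, Mi-2 library 1 most often the deepest, while SAMHD1, CMPK1 and ADSS1 have red cells there.

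The Mi-2 libraries differed in depth of the fall. The median of the 35 genes, as a log2 difference from the mean of the DMSO libraries (0.5 added to each CPM), was -0.60 in Mi-2 library 1, -0.33 in Mi-2 library 2 and -0.38 in Mi-2 library 3, and it was -0.06, 0.05 and 0.01 in DMSO libraries 1, 2 and 3. Mi-2 library 1 was the lowest of its group for 23 of the 35 genes, and DMSO library 1 for 21. Without Mi-2 library 1, 9 of the 35 were called lower, beside 1.83% of all tested genes, with a median of -0.32. Without DMSO library 2 or DMSO library 3, 11 (beside 2.37%) or 12 (beside 2.53%) were called lower. Whichever of the 6 libraries was left out, the median of the 35 lay between -0.48 and -0.32. PRPS2, PFAS, CTPS1, TYMS, DTYMK, MTHFD1, RRM1, RRM2 and DCTPP1 were called lower in each of these 6 fits. On the deposited TPM values, limma on log2(TPM + 1) in genes with a mean TPM of at least 1 called 12 of the 34 tested lower, beside 381 of 13981 genes. With no TPM filter it called none of any gene at an adjusted p under 0.05. At an unadjusted p under 0.05 it then had 24 of the 35 lower and 0 higher, beside 1972 and 1836 of 31463 genes.

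**Figure D3:**
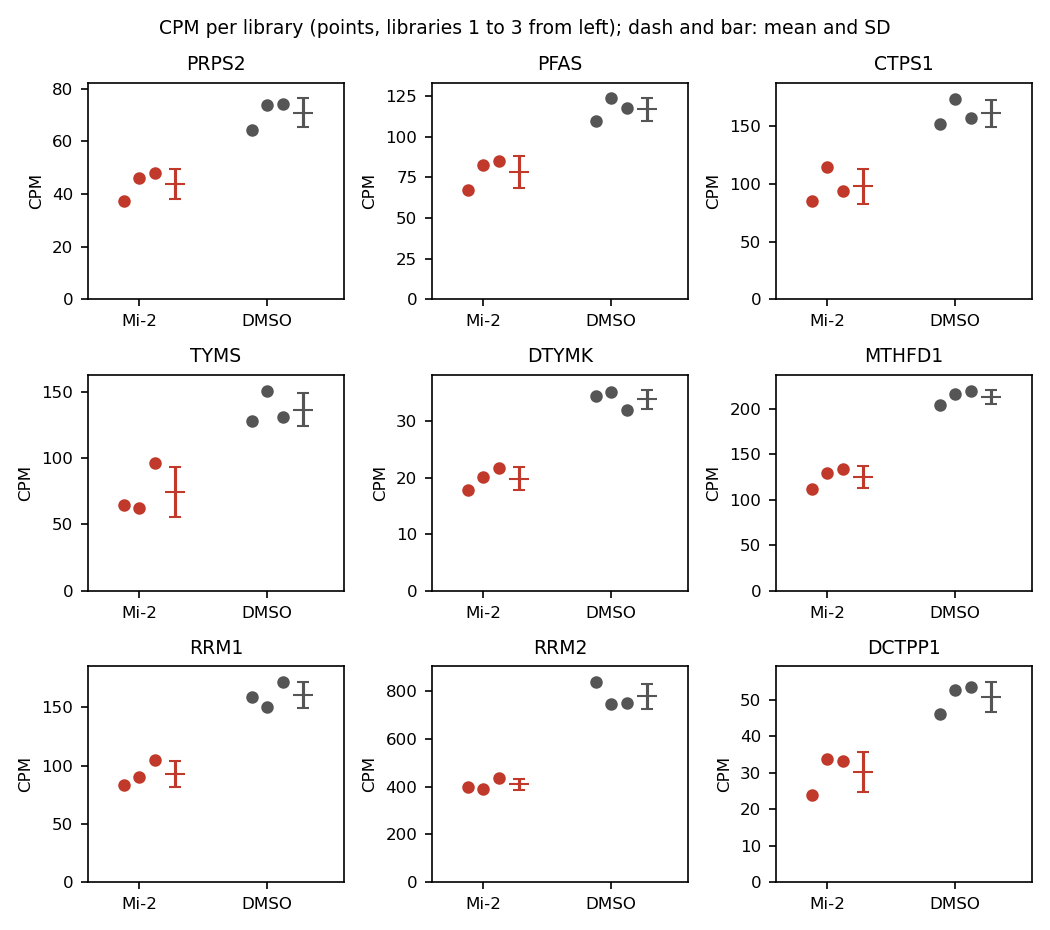
CPM (y axis, from 0) in each Mi-2 library and each DMSO library for the 9 genes called lower whichever library was left out; dashes and bars are the mean and SD of 3 libraries. In each panel the 3 Mi-2 points lie below the 3 DMSO points, as for RRM2 with 389.4 to 436.8 CPM against 746.2 to 837.4 CPM.

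Promoter sequences are shown because so many of the genes moved together and because E2F factors and the E-box binder MYC are textbook regulators of this pathway. RefSeq promoter windows (GRCh38.p14, 250 bases before to 50 after a transcription start) were found for 33 of the 35 genes, in 48 windows; IMPDH2 and ADSL had none. One of 4 E2F words (TTTCCCG or its variant TTTCGCG, and likewise TTTGCCG or its variant TTTGGCG, on either strand) was present for 10 of 33 genes (30.3%), beside 16.1% of 11154 tested genes with as many windows per gene (1.45) and 10.4% of 27305 RefSeq genes. The E-box CACGTG was present for 8 of 33 (24.2%), beside 12.6% and 8.77%, and the CCAAT box on either strand for 13 of 33 (39.4%), beside 43.3% and 39.7%. Among genes called lower, 7 of 18 held an E2F word, 6 an E-box and 8 a CCAAT box, and among the 15 not called 3, 2 and 5 did. Genes called lower had 1.56 windows each and those not called 1.33. No match overlapped a match of another motif. A match is a run of letters in this window and no evidence of binding. Upstream here means before the RefSeq start of the window. The GENCODE 29 spans of PRPS2, TYMS, DTYMK and DUT begin earlier, so their words lie inside those spans. The upstream E2F words of 5 genes called lower are shown in capitals with up to 10 bases on each side, 5′ to 3′ on the strand of the gene, and both words of DUT fall in one stretch.
PRPS2 (chrX:12791390-12791411, + strand): gccgccgcgcTTTCCCGctccc
UMPS (chr3:124730348-124730374, + strand): tgcagcaagcCGGGAAAgctgcagacg
TYMS (chr18:657605-657631, + strand): gggacggccgCGGGAAAaggcgcgcgg
DTYMK (chr2:241686865-241686891, - strand): tggccgaggcCGGGAAAtactagctaa
DUT (chr15:48332152-48332180, + strand): ctggCGGGAAAtttcggtTTTGGCGcgct

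Upstream E-boxes of 4 genes called lower are shown the same way, with the hexamer in capitals. Those of MTHFD1, DCTPP1 and DCK precede the RefSeq start but lie inside the GENCODE span of the gene.
PPAT (chr4:56435782-56435807, - strand): cggagatttcCACGTGcagcaaatac
MTHFD1 (chr14:64388328-64388352, + strand): agtccctaagCACGTGggttgggtt
DCTPP1 (chr16:30429801-30429819, - strand): agggttcctcCACGTGgtc
DCK (chr4:70993523-70993548, + strand): ccccggccttCACGTGacctggcgtg
PPAT and PAICS, which encode the committing step and a later step of purine synthesis, lie back to back on chromosome 4, and their starts are 136 bases apart. The E-box of PPAT at chr4:56435792-56435797 is also inside the PAICS window, 40 bases after the PAICS start. The interval between the starts, on the + strand, held none of the 3 motifs and is shown because both genes face it.
PPAT-PAICS interval (chr4:56435616-56435751): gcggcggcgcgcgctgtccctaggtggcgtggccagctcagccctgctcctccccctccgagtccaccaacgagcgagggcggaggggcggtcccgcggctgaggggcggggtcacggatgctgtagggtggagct
The large subunit of ribonucleotide reductase, RRM1, was called lower with neither an E2F word nor an E-box in its window. The same held for RRM2, TK1, CAD, CTPS1 and PFAS, and RRM1 is the one shown. The last 150 bases before the RRM1 start hold a CCAAT box, in capitals.
RRM1 (chr11:4094535-4094684, + strand): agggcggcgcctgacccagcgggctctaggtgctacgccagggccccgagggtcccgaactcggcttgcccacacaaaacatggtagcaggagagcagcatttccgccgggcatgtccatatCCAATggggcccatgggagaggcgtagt

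Purine ring synthesis was lower along its length: 6 of 8 genes were called lower, beside 6.03% of all tested genes. For all 8 every Mi-2 library was below every DMSO library, beside 16.6% of all tested genes. In the values that follow, the 3 CPM of a group are those of its libraries 1, 2 and 3, and the error of a log2 fold change is the SE of the edgeR fit over 3 libraries a group. PRPS2 (chrX:12791355-12824222), one of the synthetases that make PRPP, had 37.2, 46.1 and 47.9 CPM with Mi-2, against 64.4, 73.6 and 74.2 CPM with DMSO. The groups were well apart, and PRPS2 fell by 38.2% (log2 fold change -0.69 ± 0.11, edgeR adjusted p = 0.00668). The other synthetase, PRPS1, had 138.3, 129.0 and 131.8 CPM with Mi-2 against 185.0, 154.9 and 148.3 CPM with DMSO. Its groups did not overlap, yet DMSO library 1 stood above the other two and the difference was not called (-0.29 ± 0.10, edgeR adjusted p = 0.0904).

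PPAT (chr4:56393362-56435615), the amidotransferase that commits PRPP to purines, had 67.4, 92.3 and 77.2 CPM in Mi-2 libraries and 109.1, 116.2 and 104.1 CPM in DMSO libraries. It fell by 28.1% (-0.48 ± 0.12, edgeR adjusted p = 0.0297), with Mi-2 library 2 nearest to the DMSO range. GART, a trifunctional enzyme that adds glycine and a one-carbon unit among other steps, had 93.0, 119.5 and 107.4 CPM with Mi-2 and 132.0, 145.3 and 140.6 CPM with DMSO. GART fell by 23.5% (-0.39 ± 0.10, edgeR adjusted p = 0.0406). PFAS (chr17:8247618-8270491), the next amidotransferase of the route, had 67.2, 82.9 and 84.8 CPM with Mi-2 and 109.7, 123.6 and 117.4 CPM with DMSO. By estimate this was the largest fall among the ring-building steps after PRPP, 33.0% (-0.58 ± 0.10, edgeR adjusted p = 0.0104).

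PAICS (chr4:56435741-56464579), which carries out a carboxylation and the following ligation and shares the interval printed above with PPAT, had 278.0, 360.4 and 308.3 CPM with Mi-2 and 399.1, 458.7 and 420.8 CPM with DMSO. PAICS fell by 26.0% (-0.43 ± 0.11, edgeR adjusted p = 0.0352). Its order over the Mi-2 libraries, lowest in library 1 and highest in library 2, was that of PPAT, but also of GART, ADSL and ATIC. With DMSO, PAICS was lowest in library 1 and PPAT in library 3. ADSL, the lyase that acts both in ring synthesis and on the way to AMP, had 78.8, 91.4 and 84.9 CPM with Mi-2 and 102.2, 111.8 and 104.7 CPM with DMSO. ADSL fell 1.25-fold (-0.32 ± 0.09, edgeR adjusted p = 0.0419). ATIC, the bifunctional enzyme that closes the ring to IMP, had 120.9, 143.9 and 129.4 CPM with Mi-2 and 163.0, 168.6 and 156.1 CPM with DMSO, without overlap, and was just short of the call (-0.31 ± 0.09, edgeR adjusted p = 0.0567).

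PRPS2 and PFAS kept their calls whichever library was left out. PPAT, GART and ADSL lost theirs in each left-out fit except that without Mi-2 library 2, with highest edgeR adjusted p of 0.109, 0.146 and 0.168, and PAICS lost its call without Mi-2 library 1, Mi-2 library 3, DMSO library 2 or DMSO library 3 (highest 0.135). ATIC was called without Mi-2 library 2 (edgeR adjusted p = 0.0438) and by DESeq2 (adjusted p = 0.0213), and on log2(TPM + 1) limma did not call PPAT (adjusted p = 0.0852), GART (0.138), PFAS (0.227) or ADSL (0.0802).

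The steps that turn IMP into AMP and GMP held no called gene. IMPDH2, the isozyme of IMP dehydrogenase that opens the route to GMP in proliferating cells, had 385.1, 502.5 and 495.3 CPM with Mi-2 and 518.8, 590.8 and 644.6 CPM with DMSO. Its groups did not overlap, with Mi-2 library 1 the lowest by far, and the difference was not called (-0.34 ± 0.12, edgeR adjusted p = 0.110, 95% interval -0.62 to -0.06). GMPS, which completes GMP, had 49.1, 62.1 and 69.2 CPM with Mi-2 and 68.7, 81.8 and 87.9 CPM with DMSO, and Mi-2 library 3 lay just above DMSO library 1 (-0.40 ± 0.14, edgeR adjusted p = 0.0878). DESeq2 called both (adjusted p = 0.0420 for IMPDH2 and 0.0375 for GMPS).

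ADSS2, the general isozyme of adenylosuccinate synthase on the AMP side, had 82.5, 90.6 and 79.1 CPM in Mi-2 libraries and 96.3, 96.5 and 90.8 CPM in DMSO libraries, a small gap without overlap (-0.17 ± 0.08, edgeR adjusted p = 0.227). IMPDH1, the other dehydrogenase, lay between 36.0 and 42.4 CPM with Mi-2 and between 40.3 and 41.4 CPM with DMSO, and the groups overlapped (-0.07 ± 0.09, 95% interval -0.27 to 0.13). IMPDH1 has 10 annotated pseudogenes, which held 4.64% of the counts of the gene and its pseudogenes together. ADSS1, the muscle isozyme, was near the floor of detection at 1.38 to 1.77 CPM with Mi-2 and 1.29 to 1.55 CPM with DMSO, 197 counts over the 6 libraries, so the interval of its change was wide (-0.50 to 0.75).

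In pyrimidine synthesis 3 of 5 genes were called lower, beside 6.03% of all tested genes, and all 5 fold changes were negative. CAD (chr2:27217390-27243943), the trifunctional protein that starts the ring, had 136.8, 164.6 and 158.5 CPM with Mi-2 and 200.3, 235.0 and 209.2 CPM with DMSO, 28.6% lower with a wide gap between groups. DHODH, the mitochondrial dehydrogenase of the next stage, had 22.46, 28.97 and 22.56 CPM with Mi-2 and 29.03, 32.58 and 31.68 CPM with DMSO. Mi-2 library 2 came close to DMSO library 1, and DHODH was not called (-0.33 ± 0.12, edgeR adjusted p = 0.111). UMPS (chr3:124730366-124749273), which joins the ring to PRPP and releases UMP, had 57.4, 58.7 and 56.6 CPM with Mi-2 and 76.7, 73.5 and 74.1 CPM with DMSO. The spread of UMPS within each group was narrow beside the gap, and it fell by 23.0% (-0.38 ± 0.07, edgeR adjusted p = 0.0137).

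CTPS1 (chr1:40979335-41012565), the CTP synthase that lymphocytes need to proliferate, had 84.9, 114.3 and 93.7 CPM with Mi-2 and 152.0, 173.6 and 156.6 CPM with DMSO. It had the largest fall of the branch, by 39.3% (-0.72 ± 0.12, edgeR adjusted p = 0.00697). CTPS2, its isozyme, was low, at 1.95, 1.55 and 3.19 CPM with Mi-2 and 1.94, 2.56 and 2.44 CPM with DMSO. The CTPS2 groups overlapped, and the 95% interval of its log2 fold change, -0.74 to 0.64, holds the change of CTPS1. Without Mi-2 library 1 or DMSO library 2, CAD lost its call (highest edgeR adjusted p 0.0726), and without Mi-2 library 1 or DMSO library 3, UMPS did (highest 0.0615), while DHODH was called without Mi-2 library 2 (0.0391). On log2(TPM + 1), limma did not call CAD (adjusted p = 0.0805), UMPS (0.0523) or CTPS1 (0.0587).

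For thymidylate and the folate units it consumes, 4 of 5 genes were called lower, beside 6.03% of all tested genes, and all 5 fold changes were negative. TYMS (chr18:657604-673578), thymidylate synthase and the target of fluoropyrimidines, had 65.0, 62.6 and 95.9 CPM with Mi-2 and 127.9, 150.4 and 131.0 CPM with DMSO. Mi-2 library 3 was less low than the other two but still under each DMSO library, and TYMS fell by 45.4% (-0.87 ± 0.16, edgeR adjusted p = 0.0100). ENOSF1, on the opposite strand, overlaps 39.1% of the exon bases of TYMS, and whether counting used strand is not given in the sources used here. ENOSF1 itself was at 47.0 ± 1.28 CPM with Mi-2 and 56.5 ± 1.94 CPM with DMSO and was not called (-0.26 ± 0.08, edgeR adjusted p = 0.0574). DTYMK (chr2:241675742-241686991), the kinase that phosphorylates thymidylate, had 17.8, 20.2 and 21.7 CPM with Mi-2 and 34.5, 35.2 and 32.0 CPM with DMSO. DTYMK was tight within groups and fell by 41.3% (-0.77 ± 0.11, edgeR adjusted p = 0.00462).

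DUT (chr15:48331011-48343373), the dUTPase that keeps uracil out of DNA and provides dUMP for TYMS, had 40.2, 22.3 and 49.4 CPM with Mi-2 and 77.5, 88.5 and 52.2 CPM with DMSO. It was the most scattered of the called genes, DMSO library 3 lying close above Mi-2 library 3, and it fell by 48.7% (-0.96 ± 0.27, edgeR adjusted p = 0.0472). By TPM the same gene was less scattered, with 45.1, 39.7 and 49.7 TPM in Mi-2 libraries against 76.1, 91.6 and 66.2 TPM in DMSO libraries. DUT lost its call without Mi-2 library 1, Mi-2 library 2, DMSO library 1 or DMSO library 2 (highest edgeR adjusted p 0.162) and with DESeq2 (adjusted p = 0.0738), and kept it with limma on log2(TPM + 1) (adjusted p = 0.0344).

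MTHFD1 (chr14:64388031-64463457), the cytosolic trifunctional enzyme that loads one-carbon units onto folate for both purines and thymidylate, had 111.4, 129.1 and 133.7 CPM with Mi-2 and 204.3, 215.8 and 218.8 CPM with DMSO. Its gap was far wider than the spread within groups, and it fell by 41.4% (-0.77 ± 0.09, edgeR adjusted p = 0.00262). SHMT1, which takes the one-carbon unit from serine in the cytosol, had 23.8, 26.4 and 32.1 CPM with Mi-2 and 31.8, 33.6 and 36.5 CPM with DMSO. The SHMT1 groups touched and it was not called (-0.31 ± 0.12, edgeR adjusted p = 0.142), though it was without Mi-2 library 3 (0.0459).

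RRM1 and RRM2, the subunits of the S-phase form of ribonucleotide reductase, both fell. RRM2 (chr2:10120698-10131419), the regulatory subunit that is made for S phase, had 400.0, 389.4 and 436.8 CPM with Mi-2 and 837.4, 746.2 and 747.9 CPM with DMSO. RRM2 was 47.4% lower (-0.93 ± 0.09, edgeR adjusted p = 0.00196), with the groups far apart and narrow within. RRM1 (chr11:4094707-4138876), the catalytic subunit, had 83.3, 90.3 and 104.5 CPM with Mi-2 and 158.4, 150.3 and 171.8 CPM with DMSO. RRM1 fell by 42.1% (-0.79 ± 0.10, edgeR adjusted p = 0.00350), again without overlap. Per length, RRM2 held 209.7 ± 30.5 TPM with Mi-2 and 418.1 ± 19.8 TPM with DMSO, and RRM1 held 38.4 ± 4.07 TPM with Mi-2 and 65.0 ± 0.904 TPM with DMSO (SD, n = 3 each). The alternative small subunit RRM2B, a p53 target, was at 33.9, 38.3 and 32.5 CPM with Mi-2 and 33.7, 33.9 and 37.1 CPM with DMSO, with overlapping groups (0.00 ± 0.10).

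DCTPP1 (chr16:30423619-30430075), a pyrophosphatase that clears dCTP and its modified forms, had 24.0, 33.8 and 33.1 CPM in Mi-2 libraries and 46.1, 52.7 and 53.6 CPM in DMSO libraries. Library 1 was lowest in both groups, and DCTPP1 fell by 40.4% (-0.75 ± 0.13, edgeR adjusted p = 0.0102). It shares 42.1% of its exon bases with ZNF771 on the opposite strand, which was at 2.18 ± 0.969 CPM with Mi-2 and 2.22 ± 1.26 CPM with DMSO. SAMHD1, which breaks dNTPs down to nucleosides, went the other way in value, with 198.7, 201.3 and 142.3 CPM with Mi-2 and 163.1, 175.9 and 129.1 CPM with DMSO. The groups overlapped, library 3 being lowest in both, and SAMHD1 was not called (0.21 ± 0.15, edgeR adjusted p = 0.415, 95% interval -0.13 to 0.55).

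Of the kinases that carry nucleotides to the triphosphate level, 1 of 3 was called lower, beside 6.03% of all tested genes. NME1 (chr17:51153536-51162428), a nucleoside diphosphate kinase, had 93.2, 112.2 and 104.0 CPM with Mi-2 and 130.2, 139.5 and 148.7 CPM with DMSO. NME1 fell by 26.0% (-0.43 ± 0.10, edgeR adjusted p = 0.0207). Its neighbour NME2 (chr17:51165435-51171747), the close homologue, had 288.7, 334.5 and 317.0 CPM with Mi-2 and 291.4, 306.2 and 352.5 CPM with DMSO. NME2 was interleaved between groups (-0.02 ± 0.10, edgeR adjusted p = 0.945, 95% interval -0.24 to 0.21). A readthrough gene, NME1-NME2, shares exons with both, and reads of such homologues are divided by estimation, so the split is uncertain. With the 3 summed, the log2 fold change was -0.13 ± 0.10 (edgeR adjusted p = 0.431). CMPK1, the UMP and CMP kinase, ran from 106.3 to 124.3 CPM with Mi-2 and from 105.1 to 116.4 CPM with DMSO (0.06 ± 0.09, 95% interval -0.14 to 0.26). NME1 lost its call without Mi-2 library 1, DMSO library 2 or DMSO library 3 (highest edgeR adjusted p 0.0875).

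In salvage, both deoxynucleoside kinases on the list fell and the 3 enzymes for bases or ribonucleosides were not called. TK1 (chr17:78174075-78187233), the thymidine kinase of S phase, had 55.9, 52.3 and 74.6 CPM with Mi-2 and 102.7, 88.1 and 100.7 CPM with DMSO. Like TYMS, TK1 was highest in library 3 among the Mi-2 libraries, and it fell by 37.3% (-0.67 ± 0.13, edgeR adjusted p = 0.0140). DCK (chr4:70992538-71030914), the deoxycytidine kinase that activates cytarabine and gemcitabine, had 29.4, 35.9 and 30.3 CPM with Mi-2 and 44.3, 47.0 and 46.8 CPM with DMSO. DCK fell by 30.8% (-0.53 ± 0.10, edgeR adjusted p = 0.0119). TK1 lost its call without Mi-2 library 1 or DMSO library 3 (highest edgeR adjusted p 0.0642), and DCK without Mi-2 library 1 or DMSO library 2 (highest 0.0581).

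HPRT1, which recycles hypoxanthine and guanine, had 46.2, 68.3 and 62.4 CPM with Mi-2 and 74.1, 83.7 and 81.0 CPM with DMSO. The HPRT1 groups did not overlap, but the spread among the Mi-2 libraries was wide and it was not called (-0.43 ± 0.13, edgeR adjusted p = 0.0669). It was called without Mi-2 library 2 (edgeR adjusted p = 0.0485) and by DESeq2 (adjusted p = 0.0205). UCK2, a uridine and cytidine kinase, ran from 193.3 to 241.8 CPM with Mi-2 and from 242.6 to 301.0 CPM with DMSO, with hardly any gap between groups (-0.27 ± 0.11, edgeR adjusted p = 0.170). APRT, which recycles adenine, overlapped between groups, at 82.8 to 98.3 CPM with Mi-2 and 93.1 to 98.6 CPM with DMSO (-0.09 ± 0.09, 95% interval -0.29 to 0.11).

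Where a reaction has a pair of isozymes, their shares within a library do not depend on scaling between libraries. NME1 held 17.8%, 18.5% and 18.2% of the summed TPM of NME1 and NME2 in Mi-2 libraries, against 23.0%, 23.6% and 21.9% in DMSO libraries. The difference of -4.66 percentage points was larger than the spread in either group. PRPS1 held 76.7%, 72.2% and 71.4% of PRPS1 and PRPS2 with Mi-2 and 71.9%, 65.3% and 63.3% with DMSO, which overlapped (6.57 points). IMPDH1 held 6.79% to 8.28% of IMPDH1 and IMPDH2 with Mi-2 and 5.42% to 7.48% with DMSO (1.37 points), and CTPS1 held 98.4% to 99.3% of CTPS1 and CTPS2 with Mi-2 and 99.2% to 99.3% with DMSO (-0.42 points). ADSS1 held 6.72%, 3.49% and 3.13% of ADSS1 and ADSS2 with Mi-2 and 2.36%, 2.69% and 2.24% with DMSO (2.02 points, or 0.882 without Mi-2 library 1 and 0.339 as a share of counts). In two-sided exact permutation tests, p was 0.1 for NME1 and ADSS1, the smallest that 3 against 3 can give, and 0.25 for both after Benjamini-Hochberg adjustment over the 5 pairs. For PRPS1, IMPDH1 and CTPS1 the exact p was 0.2, 0.3 and 0.4.

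**Figure D4:**
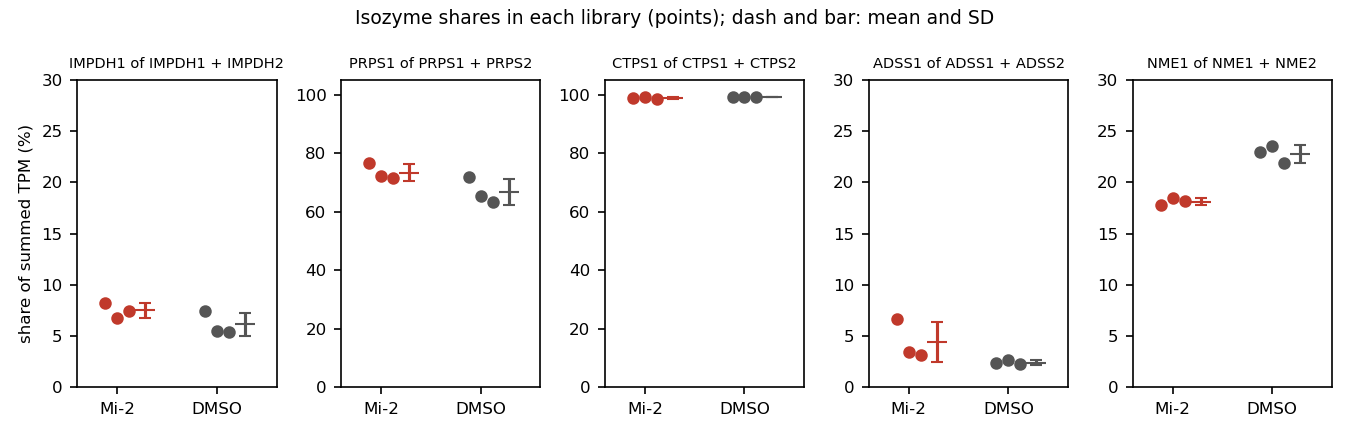
Share (%) of the summed TPM of a pair of isozymes held by the first of them in each Mi-2 and each DMSO library, with the mean and SD of 3 libraries; the y axes run to 30% or to just over 100%. NME1 lies at 17.8% to 18.5% with Mi-2 and 21.9% to 23.6% with DMSO, and CTPS1 is above 98% in both groups.

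By length-corrected level NME2 was the highest of the 35 in both groups and IMPDH2 the next. In Mi-2 libraries NME2 was at 860.7 ± 41.1 TPM and IMPDH2 at 367.0 ± 44.1 TPM, and in DMSO libraries they stood at 891.4 ± 57.7 and 467.6 ± 38.6 TPM (SD, n = 3 each). With Mi-2, RRM2 lay at 176.3 to 235.9 TPM, a range that overlapped those of APRT (180.7 to 214.8 TPM) and NME1 (178.4 to 205.2 TPM). With DMSO, RRM2 lay at 401.4 to 439.9 TPM, overlapped the range of IMPDH2 (423.1 to 491.0 TPM) and was above APRT and NME1. CTPS2 and ADSS1 were the lowest, at 0.687 ± 0.254 and 2.01 ± 0.943 TPM with Mi-2 and 0.713 ± 0.105 and 1.21 ± 0.216 TPM with DMSO.

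Beyond the 35, a list of 98 other genes of nucleotide metabolism (mitochondrial and other folate handling, further kinases, breakdown, nucleoside transport and precursor supply) held 80 that passed the filter on low counts. Of these 80, 7 were higher, 11 lower and 62 not called, beside 5.02% higher and 6.03% lower of all tested genes. Their median log2 fold change was -0.07. Lower were 5 of 17 genes of folate handling, among them SLC19A1, the reduced folate carrier, which was at 45.7, 57.4 and 59.1 CPM with Mi-2 and 87.2, 102.6 and 77.1 CPM with DMSO (-0.72 ± 0.13, edgeR adjusted p = 0.0103). Higher were 2 of the 17, among them ALDH1L2, a mitochondrial dehydrogenase of formylated folate, with 644.2, 677.0 and 599.0 CPM in Mi-2 libraries and 491.2, 503.3 and 491.7 CPM in DMSO libraries (0.37 ± 0.08, edgeR adjusted p = 0.0243). The mitochondrial one-carbon enzymes SHMT2 and MTHFD2 were not called, at 251.0 and 346.8 CPM with Mi-2 and 255.1 and 378.9 CPM with DMSO (-0.02 ± 0.12 and -0.13 ± 0.09).

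AMPD1, an AMP deaminase best known from muscle, had 973.2, 1089 and 1086 CPM with Mi-2 and 2036, 1782 and 1928 CPM with DMSO. AMPD1 fell by 45.2% (-0.87 ± 0.10, edgeR adjusted p = 0.00209), with the groups far apart. SLC29A1, the equilibrative nucleoside transporter ENT1, had 48.4, 67.5 and 74.6 CPM with Mi-2 and 98.5, 131.5 and 114.6 CPM with DMSO, and fell by 44.7% (-0.86 ± 0.16, edgeR adjusted p = 0.0114). ENTPD1, the surface ectonucleotidase CD39, had 8.03, 11.8 and 7.67 CPM with Mi-2 and 15.3, 16.2 and 17.8 CPM with DMSO (-0.84 ± 0.18, edgeR adjusted p = 0.0169).

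Leaving aside genes whose average log2 CPM was under 1, the largest rise here was that of GLRX, glutaredoxin, an electron donor to ribonucleotide reductase. GLRX had 44.96, 38.9 and 38.3 CPM with Mi-2 and 19.2, 15.5 and 16.4 CPM with DMSO, 2.39-fold higher (1.26 ± 0.12, edgeR adjusted p = 0.00196). ENTPD4, a nucleotidase of the Golgi and lysosomes, had 158.4, 149.7 and 130.4 CPM with Mi-2 and 101.7, 89.9 and 83.1 CPM with DMSO (0.67 ± 0.11, edgeR adjusted p = 0.00636). For GLRX and ENTPD4, as for ADA2, TK2 and ALDH1L2, every Mi-2 library lay above every DMSO library, beside 15.7% of all tested genes. They were picked from genes called higher, so this separation is no further evidence. ADA2, a secreted adenosine deaminase, had 164.0, 146.8 and 132.3 CPM with Mi-2 and 116.5, 103.7 and 92.6 CPM with DMSO (0.50 ± 0.11, edgeR adjusted p = 0.0218). TK2, the mitochondrial thymidine kinase, had 37.0, 29.5 and 32.4 CPM with Mi-2 and 27.4, 21.9 and 22.2 CPM with DMSO (0.47 ± 0.13, edgeR adjusted p = 0.0438), the opposite direction to TK1. AMPD1, SLC29A1, SLC19A1, GLRX and ENTPD4 were called in each of the 6 left-out fits. ENTPD1 lost its call without Mi-2 library 1, DMSO library 2 or DMSO library 3 (highest edgeR adjusted p 0.0726). ADA2 (0.0904), TK2 (0.169) and ALDH1L2 (0.0842) lost theirs in 4, 4 and 5 of the 6 fits, Mi-2 library 1, DMSO library 2 and DMSO library 3 among the libraries left out in each. On log2(TPM + 1), limma did not call ENTPD1 (adjusted p = 0.200), ENTPD4 (0.0680), ADA2 (0.101), TK2 (0.135) or ALDH1L2 (0.0801).

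Genes of DNA replication and regulators of the pathway were measured beside the 35. Of 37 DNA replication genes, 33 were lower and 0 higher, beside 6.03% lower and 5.02% higher of all tested genes. Their median log2 fold change was -0.86, so they moved with the nucleotide genes, and their part in the falls was not tested. Promoter windows were found for 31 of the replication genes, with an E2F word in 19 (61.3%), an E-box in 5 (16.1%) and a CCAAT box in 18 (58.1%). Among tested genes these shares were 16.1%, 12.6% and 43.3%. E2F1, a transcription factor of the G1 to S transition, had 40.2, 40.1 and 53.0 CPM with Mi-2 and 80.0, 98.8 and 89.0 CPM with DMSO. E2F1 fell by 50.2% (-1.01 ± 0.13, edgeR adjusted p = 0.00314) and was called in each left-out fit. MYC, a transcription factor that binds E-boxes, had 331.6, 337.9 and 399.4 CPM with Mi-2 and 460.6, 505.9 and 499.6 CPM with DMSO. Its groups were apart, and the call (-0.46 ± 0.10, edgeR adjusted p = 0.0196) was lost without Mi-2 library 1, Mi-2 library 2, DMSO library 2 or DMSO library 3 (highest 0.0809). Of the 7 regulators measured, 3 were lower and 0 higher, the third being E2F2, another activator of the E2F family, at 103.3, 83.3 and 121.7 CPM with Mi-2 and 166.4, 153.1 and 154.4 CPM with DMSO (-0.62 ± 0.13, edgeR adjusted p = 0.0161). Not called were E2F3 (-0.24 ± 0.08, edgeR adjusted p = 0.0792), MAX, the partner of MYC (0.07 ± 0.11), RB1, the retinoblastoma protein that restrains E2F (0.05 ± 0.10), and the cyclin-dependent kinase inhibitor CDKN1A (-0.41 ± 0.21, edgeR adjusted p = 0.243).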

How the data were processed

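Per the labels' protocols, total RNA was taken with TRIzol and sequenced in pairs on a NovaSeq. Named without roles in the submitters' processing notes are RSEM 1.3.3, StringTie 2.1.0, HISAT2 2.1.0, fastp 0.19.5 and GRCh38.p13. Estimated counts per gene and TPM values, which correct for gene length, were deposited by the authors for 62703 IDs; for strand use and RNA selection, the sources used here give nothing. Symbols came from a table of Ensembl IDs (62625 matched), coordinates from GENCODE 29 (GRCh38).

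Estimated counts were rounded, filtered with filterByExpr (minimum count 10, minimum total 15; 16082 genes left) and TMM-scaled. Mi-2 was compared with DMSO in edgeR 4.0.16 under R 4.3.3 (quasi-likelihood F test), with Benjamini-Hochberg adjustment over all tested genes. CPM are estimated counts scaled by TMM factor and by library total over the filtered genes. SEs were derived from fold change and F statistic. The biological coefficient of variation was 14.2% and totals were 19980700 to 23756700, which limits calls of small changes. Within groups, libraries differed by 15.0 to 21.2 times the chi-square of counting alone, so none was a copy. Isozyme shares had exact permutation tests. Alternatives were RLE scaling, DESeq2 1.42.0, no filter, removal of immunoglobulin and the 20 highest genes, limma 3.58.1 on log2(TPM + 1) or log2(TPM + 0.1), whose fold changes understate those of low genes, a replicate block, and each library left out. The gene list and the other lists were chosen with earlier results of these data known. Values in each library are given for called genes, their isozymes and genes whose role the account needs, and for up to 6 other called pathway genes a direction, by size of change, if their average log2 CPM was 1 or more. Some of these other pathway genes are not reported here.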

Additional observations from a re-analysis of the deposited data

How the results depend on the processing

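No result turned in direction past a threshold. Of the 35 nucleotide synthesis genes, 19 were called lower and 0 higher, and RLE scaling (19), removal of immunoglobulin and the 20 highest genes (19), DESeq2 (22), no filter (24) and log2(TPM + 0.1) (13) stayed within 1.5 times that count. Limma on log2(TPM + 1) called 12 lower. With each library left out, 9 to 21 were lower and 0 higher. The other pathway genes (7 higher, 11 lower) gave 2 and 5 on log2(TPM + 1) and on log2(TPM + 0.1), and 3 to 6 higher and 4 to 10 lower with a library left out. All tested genes (808 higher, 969 lower) gave 1221 and 1541 with no filter, 229 and 381 on log2(TPM + 1), 249 and 398 on log2(TPM + 0.1), and 216 to 715 and 302 to 866 with a library left out. With no TPM filter limma called 0 in each set. At an unadjusted p under 0.05 it then had 1836 higher and 1972 lower of 31463 tested, 0 and 24 of the 35, and 10 and 16 of the other pathway genes. The NME1 share of NME1 and NME2 differed by -5.87 points when taken from counts. CTPS2 and NME2, both uncalled, changed sign in some fits. At 197 and 305 counts over 6 libraries, ADSS1 and CTPS2 are limited by depth.

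Libraries of the same number deviated from their group means with correlations of 0.41, 0.06 and 0.26. Libraries of different numbers gave -0.33 to 0.08, the highest being Mi-2 library 2 with DMSO library 3, slightly above Mi-2 library 2 with DMSO library 2. No label pairs the numbers, and they were not taken as pairs outside the replicate block. Whether they are pairs was not tested. The replicate block raised the counts to 1791 higher and 2035 lower of all genes, 1 (SAMHD1) and 27 of the 35, and 13 and 17 of the other pathway genes.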
